A study of Mus musculus with 10 samples.

Results

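The 8 genes described here encode transcriptional regulators that act in the output of the circadian clock or on its loop: Dbp, Tef, Hlf, Nfil3, Bhlhe40, Bhlhe41, Ciart and Rora. They were chosen by name, as a functional group, from the 46071 gene rows of a count table of mouse liver RNA, and all 8 were among the 14820 genes with enough counts to test. The table holds 10 libraries in 3 groups of offspring that differ in which parent lacked the insulin receptor in the liver. In the LIRKO parent, the insulin receptor gene Insr carries lox sites on both copies (IRlox/lox) and Albumin-Cre+/- removes it. Albumin drives Cre in hepatocytes, so other liver cells of that parent keep the receptor. The FL group (3 libraries) had a LIRKO father and a control mother, and in the ML group (3 libraries) the mother was LIRKO and the father a control. The control group (4 libraries) had parents that both carried Insr lox/lox without Cre (Albumin-Cre-/-), from a line of controls crossed for 4 generations. The Cre genotype, sex, age and litter of the offspring are not given in the labels, and neither is the hour at which livers were taken. Nothing states that the libraries of a group are separate animals, so each p-value measures the spread between libraries.

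The circadian clock of a liver cell is a loop in which BMAL1 (encoded by Arntl) and CLOCK activate genes through E-box sequences, and the products of some of those genes then hold BMAL1 and CLOCK back. DBP, TEF and HLF are related PAR bZIP activators that bind D-box sequences and drive liver genes of drug, lipid and vitamin metabolism. NFIL3, also called E4BP4, binds the same D-boxes as a repressor. BHLHE40 and BHLHE41 (DEC1 and DEC2) occupy E-boxes as repressors, CIART (CHRONO) represses BMAL1 and CLOCK directly, and RORA activates genes with a ROR response element, Arntl among them. Most of these transcripts swing with the time of day in liver, so the hour of collection moves their level.

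Because the loop acts through short DNA sequences, the stretches before the start sites were searched for them, and 3 that hold an E-box are printed with CACGTG in capitals. They come from RefSeq on GRCm38.p6, in the direction of transcription from 5′ to 3′, and each is the stretch of a 300-base window (250 bases before the start site to 50 after it) that lies before the start site and outside annotated exons of GENCODE M21. Ciart is shown for its 3 E-boxes, at positions -116, -58 and -44 from its start site; Bhlhe41 for a copy at -153; and Tef for a copy at -138 of its downstream start site.
Ciart, chr3:95882252-95882478, minus strand: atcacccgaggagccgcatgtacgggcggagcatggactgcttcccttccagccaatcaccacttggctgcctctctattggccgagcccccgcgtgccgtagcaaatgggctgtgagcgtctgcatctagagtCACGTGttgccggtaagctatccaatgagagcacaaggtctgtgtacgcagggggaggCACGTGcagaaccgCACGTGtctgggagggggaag
Bhlhe41, chr6:145865559-145865670, minus strand: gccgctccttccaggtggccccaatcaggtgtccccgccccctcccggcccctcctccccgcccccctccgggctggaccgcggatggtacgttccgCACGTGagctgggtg
Tef, chr15:81811164-81811413, plus strand: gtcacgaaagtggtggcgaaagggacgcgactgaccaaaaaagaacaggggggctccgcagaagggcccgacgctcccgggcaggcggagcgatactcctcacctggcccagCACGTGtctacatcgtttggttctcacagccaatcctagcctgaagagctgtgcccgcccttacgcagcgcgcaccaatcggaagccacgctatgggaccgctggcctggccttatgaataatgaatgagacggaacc

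Of the 8 symbols, 7 matched the RefSeq table, all but Bhlhe40, with 8 windows between them because Tef has an upstream start site as well. CACGTG was present in 4 of the 8 windows, both of Tef among them, beside 7.15% of all 32851 windows of this length. At least 3 copies, as in Ciart, occurred in 0.0883% of windows. The cAMP response element TGACGTCA, bound by CREB, was present in 1 of the 8 windows, that of Hlf at position -9, beside 1.79% of all windows. Its sequence is printed with that element in capitals.
Hlf, chr11:90390918-90391167, minus strand: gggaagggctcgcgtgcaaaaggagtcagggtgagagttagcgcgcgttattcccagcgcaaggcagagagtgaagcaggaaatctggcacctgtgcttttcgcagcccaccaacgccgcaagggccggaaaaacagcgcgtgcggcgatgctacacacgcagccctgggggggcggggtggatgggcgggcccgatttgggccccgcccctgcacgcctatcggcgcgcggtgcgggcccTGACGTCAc

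None of the 8 windows held the related E-box CACGTT (4.68% of all windows), a D-box written as TTATGTAA or TTACGTAA (1.06%) or a ROR response element (0.384%). All searches covered both strands, and a match describes letters in a window, not a bound site.

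Library totals ran from 18655506 to 39379940 counts. Levels are given as CPM, counts scaled to library size with TMM factors, a correction for library composition. Insr itself was at 62.9 to 128 CPM in control, 59.3 to 77.6 CPM in FL and 28.2 to 55.2 CPM in ML. Hepatocyte markers were high in every library, at 54960 to 99763 CPM summed over 6 genes. Library ML 9, and to a smaller degree control 1, stood apart. Genes with under 1000 bases of exon lay a median of 1.22 above their mean over libraries on the log2 scale in ML 9 and 0.28 above it in control 1, against -0.39 to 0.19 elsewhere. Genes as long as the 8 factors (2026 to 13071 bases of exon) lay at -0.22 in ML 9 and -0.13 in control 1, against -0.06 to 0.09 in the other libraries. Summed macrophage markers were at 213 to 395 CPM in control, 222 to 307 CPM in FL and 201 to 903 CPM in ML. T and NK cell markers were at 2.19 to 3.36, 1.56 to 3.13 and 3.38 to 11.6 CPM, and erythroid markers at 184 to 625, 127 to 249 and 313 to 2114 CPM in the same order. ML 9 held the highest of each, and every marker of these 4 cell types was above 0 in every library. Sinusoidal endothelial, stellate and B cell markers were also highest in ML 9, at 219, 332 and 9.58 CPM. Cholangiocyte markers went the other way, lowest in ML 9 at 21.6 CPM against 28.8 to 68.7 CPM elsewhere. The part that RNA length or other cells played in the results was not tested beyond the fits without these 2 libraries and with length trends removed. In whole liver, fewer cells of a type and less RNA per cell cannot be told apart.

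None of the 8 factors passed the test in any comparison with edgeR's quasi-likelihood test at an adjusted p of 0.05, and among all genes that rule called 0.0135% in FL against control, 0% in ML against control and 0.00675% in FL against ML. At an unadjusted p under 0.05, the counts over all genes were 523, 2392 and 2964, or 3.53%, 16.1% and 20% of those tested. Among the 8 factors the same rule took 0 in FL against control, 2 in ML against control (Bhlhe40 and Rora, both lower, as were 7.33% of genes) and 2 in FL against ML (Bhlhe40 and Bhlhe41, both higher in FL, as were 7.59% of genes). DESeq2 called Bhlhe40 in both comparisons with ML. In ML against control it gave all 8 factors an adjusted p and called 0.312% of the 14732 genes that had one. In FL against ML it gave an adjusted p to Tef and Bhlhe40 alone among the 8, and called 13.2% of the 1883 genes that had one. With limma-voom 0 of the 8 were called in all 3 comparisons. That tool called few genes at all: 1 in FL against control, 0 in ML against control and 1 in FL against ML, of 14820 tested. The values by library show a set of genes that differed widely between libraries of the same group, and 1 member, Bhlhe40, whose ML libraries lay under every other library.

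**Figure D1:**
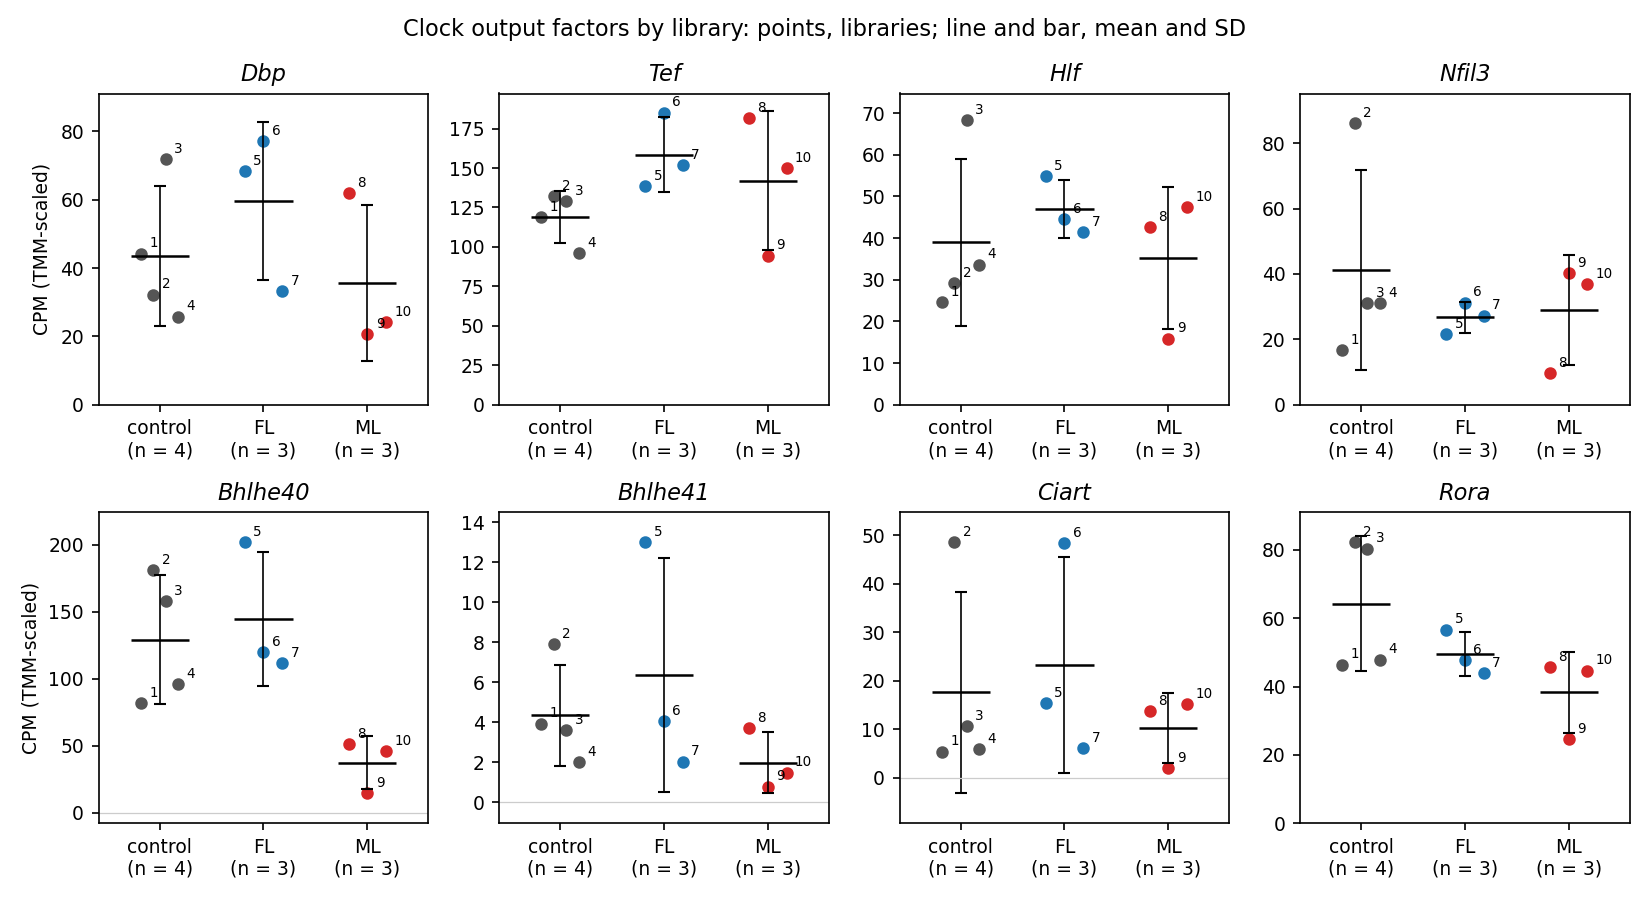
CPM of each of the 8 factors in the 10 libraries by group, with numbered points for libraries, horizontal lines for group means and bars of 1 SD. Bhlhe40 in the 3 ML libraries, at 14.9 to 51.2 CPM, sits below every control and FL library, while Ciart spreads from 5.41 to 48.6 CPM within the controls alone.

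Levels were compared between the factors only after division by exon length, as CPM per kilobase. By the median over 10 libraries the order was Bhlhe40 at 22.1, Tef at 17.2, Nfil3 at 15.4, Dbp at 12.9, Hlf at 6.29, Ciart at 5.40, Rora at 3.60 and Bhlhe41 at 0.543. Only the steps from Dbp down to Hlf and from Rora down to Bhlhe41 held in 10 of 10 libraries. Bhlhe40 lay above Tef in 7 libraries, which were all 4 controls and all 3 FL libraries, and below it in the 3 ML libraries. Tef lay above Nfil3 in 7 libraries, Nfil3 above Dbp in 5, Hlf above Ciart in 8 and Ciart above Rora in 5. The ratio of the highest to the lowest library on the CPM scale set a steady end and a variable end of the group. It was 1.96 for Tef, 3.35 for Rora, 3.74 for Dbp and 4.32 for Hlf, and it reached 8.93 for Nfil3, 13.6 for Bhlhe40, 16.6 for Bhlhe41 and 24.0 for Ciart. Within the 4 controls, which share their type of parents, the ratio was 8.97 for Ciart, 5.17 for Nfil3 and 3.97 for Bhlhe41, and 1.38 for Tef.

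The PAR bZIP activators come first. Dbp (ENSMUSG00000059824, chromosome 7, 45705088 to 45710203, plus strand) has a strong daily rhythm in liver. Its level was 44.2, 32.2, 71.9 and 25.8 CPM in controls 1 to 4, 68.3, 77.05 and 33.3 CPM in FL 5 to 7, and 61.8, 20.6 and 24.2 CPM in ML 8 to 10. Each group held both high and low libraries, and the 3 ranges overlapped. The means were 43.5 ± 20.4 CPM (SD, n = 4) in control, 59.5 ± 23.2 CPM (n = 3) in FL and 35.6 ± 22.8 CPM (n = 3) in ML. On the log2 scale FL differed from control by 0.45 (SE 0.47, edgeR adjusted p = 1.00) and ML from control by -0.29 (SE 0.48, edgeR adjusted p = 0.767). The FL value was 0.23 without FL 6 and 0.81 without control 3, and the ML value -0.96 without ML 8 and 0.06 without control 3. Dbp shares 539 exon bases with Sphk2 on the opposite strand, a gene with at most 2537 counts in a library, and whether the counting used strand is not given in the sources used here.

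Tef (ENSMUSG00000022389, chromosome 15, 81802421 to 81826863, plus strand) was the steadiest of the 8. The controls gave 119, 132, 129 and 96.1 CPM, FL gave 139, 185 and 152 CPM, and ML gave 182, 94.4 and 150.2 CPM. All 3 FL libraries lay above all 4 controls, an arrangement that 2.79% of all tested genes showed in that direction, and ML ran from below the lowest control to just under the highest FL library. The FL difference from control was 0.41 on the log2 scale (SE 0.29, 95% interval -0.21 to 1.04, edgeR adjusted p = 1.00), so a rise of about that size could not be told from the spread between libraries. In ML the difference was 0.26 (SE 0.29, edgeR adjusted p = 0.641), and without control 1 and ML 9 it was 0.48 (SE 0.23, edgeR adjusted p = 0.197). Leaving out ML 8 alone brought it to 0.04.

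Hlf (ENSMUSG00000003949, chromosome 11, 90336536 to 90390895, minus strand), the third activator, was at 24.6, 29.2, 68.4 and 33.6 CPM in the controls, at 54.8, 44.6 and 41.5 CPM in FL and at 42.6, 15.8 and 47.5 CPM in ML. Control 3 was the highest library and ML 9 the lowest, with the FL libraries between them. The differences from control were 0.27 (SE 0.43) in FL and -0.14 (SE 0.43) in ML on the log2 scale, with edgeR adjusted p-values of 1.00 and 0.880. The ML value turned to 0.04 without control 1 and ML 9 and to 0.28 without control 3.

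Because DBP, TEF and HLF bind the same sites, their summed level per kilobase was followed as well. It was 33.6, 31.9, 50.7 and 25.9 in the controls, 48.7, 56.0 and 36.6 in FL, and 50.1, 21.3 and 34.3 in ML. The share of the sum supplied by Tef ran from 32.4% to 52.7% in controls, from 36.2% to 52.7% in FL and from 46.1% to 56.5% in ML. ML 9 held the lowest sum and FL 6 the highest, and the ranges of the 3 groups overlapped.

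Nfil3 (ENSMUSG00000056749, chromosome 13, 52967209 to 52981073, minus strand), the repressor of D-boxes, was at 16.6, 86.1, 31.1 and 31.2 CPM in the controls, at 21.6, 31.2 and 27.3 CPM in FL, and at 9.64, 40.2 and 37.0 CPM in ML. Control 2 was far above the rest and ML 8 was the lowest, and Nfil3 was the factor whose lowest library was not ML 9. The log2 differences from control were -0.63 (SE 0.57) in FL and -0.51 (SE 0.57) in ML, with edgeR adjusted p-values of 1.00 and 0.633. Both rested on control 2, since without it they were 0.02 and 0.13. The summed activators stood at 4.09, 0.752, 3.30 and 1.68 times the level of Nfil3 per kilobase in the controls, 4.57, 3.63 and 2.72 times in FL and 10.5, 1.07 and 1.88 times in ML. In 9 of 10 libraries the activator transcripts outnumbered the repressor, control 2 being the exception, and the ratio differed more within the ML group than between group means.

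Bhlhe40 (ENSMUSG00000030103, chromosome 6, 108660629 to 108666925, plus strand), the E-box repressor DEC1, had the highest median level per kilobase over the 10 libraries and was the only one of the 8 whose ML libraries lay below all others. Its level was 81.8, 181, 158 and 96.3 CPM in the controls and 202, 120.2 and 112 CPM in FL. In ML it was 51.2, 14.9 and 46.2 CPM, from 1948, 228 and 1490 counts. All 3 ML libraries lay below all 7 others, as did 1.21% of tested genes, and FL overlapped control. The means were 129 ± 47.9 CPM (n = 4) in control, 145 ± 49.8 CPM (n = 3) in FL and 37.4 ± 19.7 CPM (n = 3) in ML.

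ML was lower than control by 3.45-fold, a log2 difference of -1.79 (SE 0.47, 95% interval -2.82 to -0.76), with an unadjusted p of 0.00264 and an adjusted p of 0.301 in edgeR. FL was higher than ML by 3.86-fold, 1.95 on the log2 scale (SE 0.49, 95% interval 0.87 to 3.03), with an unadjusted p of 0.00198 and an adjusted p of 0.238 in edgeR. By p-value Bhlhe40 ranked 38 and 35 among 14820 genes in these comparisons, which share the ML libraries, and FL lay above ML without overlap, as did 16.6% of genes. FL and control differed by 0.16 (SE 0.44, 95% interval -0.81 to 1.13). The call depended on the tool: DESeq2 gave -1.78 with an adjusted p of 0.0478 and 1.93 with an adjusted p of 0.0363, the latter adjusted over 1883 genes, and limma-voom gave an adjusted p of 0.442 for ML against control. Over the 22 alternatives, adjusted p ran from 0.0478 to 0.999 for ML against control and from 0.0363 to 1.00 for FL against ML. Without control 1 and ML 9 the ML difference was -1.57 (SE 0.35, edgeR adjusted p = 0.0954), without ML 9 alone it was -1.39 (edgeR adjusted p = 0.867), and with a surrogate variable it was -1.13 (edgeR adjusted p = 0.999).

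The ML libraries other than ML 9 held 51.2 and 46.2 CPM of Bhlhe40, still below the lowest control at 81.8 CPM. After any drift with exon length and GC content was removed from each library, the values were 91.7, 164, 151 and 89.0 CPM in controls, 184, 117 and 109.6 CPM in FL and 51.1, 18.2 and 48.9 CPM in ML, with ML still below control and FL. The ratio of Bhlhe40 to Tef within a library needs no scaling between libraries, but it is no separate test of Bhlhe40. Tef varied least of the factors, by 1.96-fold over libraries, so the ratio largely repeats the level of Bhlhe40. Tef was also 0.26 above control in ML on the log2 scale. The exon lengths of Bhlhe40 and Tef, 4705 and 7867 bases, differ, so the ratio keeps any drift with length. The ratio was 0.689, 1.37, 1.23 and 1.00 in controls, 1.46, 0.649 and 0.738 in FL and 0.282, 0.157 and 0.308 in ML. The ML libraries lay below the 7 others, and how many genes do so against Tef was not tested. In all 22 alternatives run for each comparison, Bhlhe40 was lower in ML than in control and lower in ML than in FL, with log2 differences of -2.08 to -1.13 and 1.09 to 2.24.

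**Figure D2:**
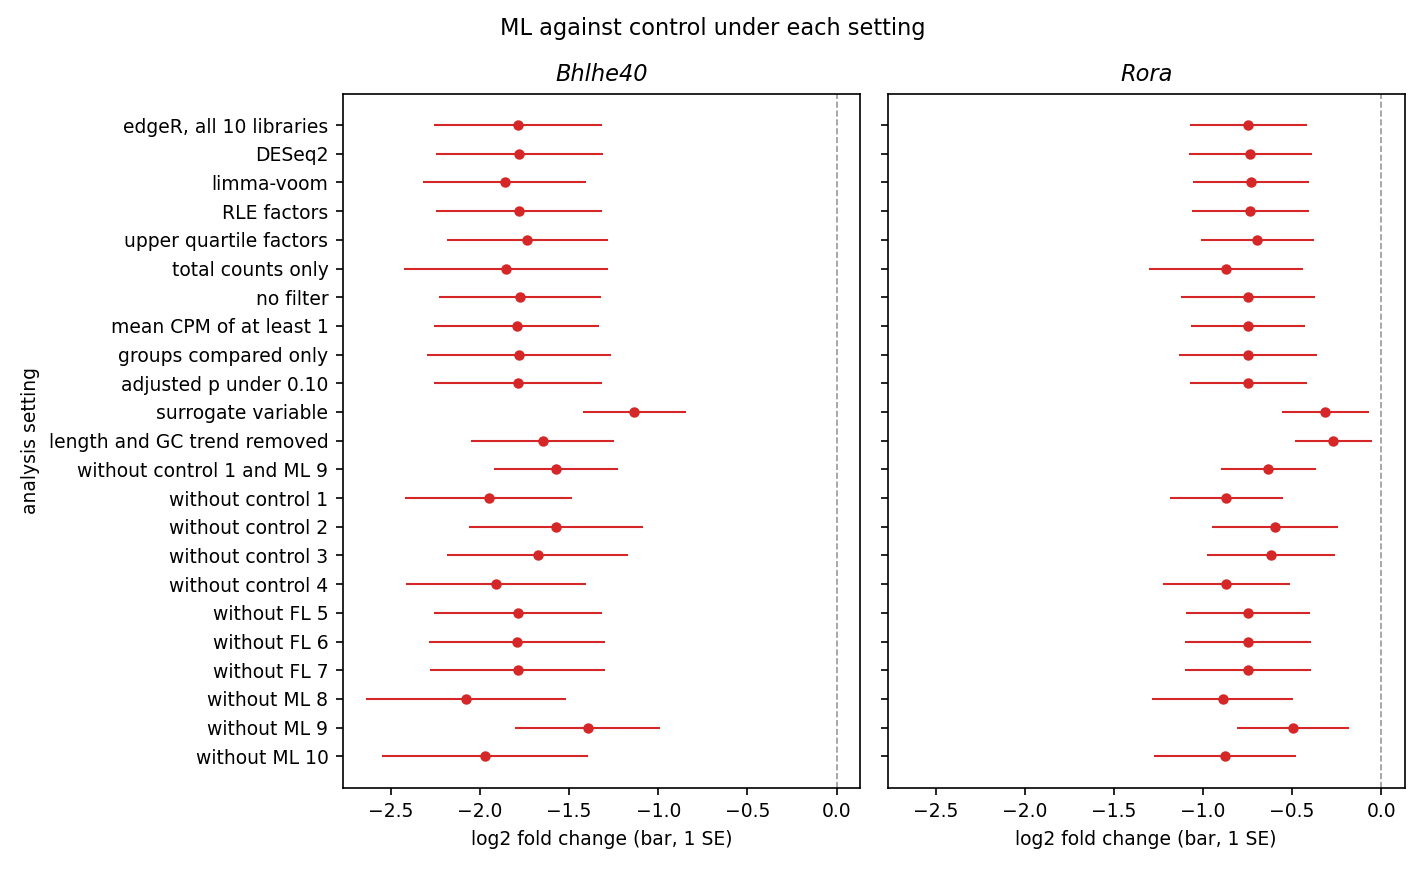
Log2 difference of ML from control for Bhlhe40 and Rora under each fit, with bars of 1 SE. Bhlhe40 stays between -2.08 and -1.13, and Rora moves between -0.89 and -0.27, nearest to 0 when the drift with exon length and GC content is removed.

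Bhlhe41 (ENSMUSG00000030256, chromosome 6, 145858243 to 145865558, minus strand), the paralog DEC2, was the scarcest factor. It shares 1280 exon bases with Gm43909 on the opposite strand. The controls gave 3.93, 7.92, 3.60 and 2.00 CPM, FL gave 13.0, 4.05 and 2.04 CPM, and ML gave 3.70, 0.782 and 1.49 CPM, the lowest of these from 12 counts. FL 5 was the highest library for both paralogs and ML 9 the lowest, but the groups overlapped for Bhlhe41. The log2 differences from control were 0.54 (SE 0.68) in FL and -1.10 (SE 0.71) in ML, with edgeR adjusted p-values of 1.00 and 0.412. FL against ML gave 1.65 (SE 0.75, unadjusted p = 0.0497, adjusted p = 0.250 in edgeR), and without control 1 and ML 9 it gave 1.29 (SE 0.82, edgeR adjusted p = 0.392). It was 0.59 (SE 0.71, edgeR adjusted p = 0.722) without FL 5 and 2.46 without ML 8. The FL difference from control rested on FL 5, without which it was -0.52.

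Ciart (ENSMUSG00000038550, chromosome 3, 95878503 to 95882251, minus strand), whose promoter held the 3 E-boxes printed above, had the widest range. Its level was 5.41, 48.6, 10.6 and 5.92 CPM in the controls, 15.4, 48.4 and 6.09 CPM in FL and 13.8, 2.02 and 15.2 CPM in ML. A single high library stood in each of the control and FL groups, control 2 and FL 6, and ML 9 was the lowest. The log2 differences from control were 0.40 (SE 0.90, 95% interval -1.56 to 2.36) in FL and -0.77 (SE 0.92, 95% interval -2.78 to 1.25) in ML, with edgeR adjusted p-values of 1.00 and 0.665. Both directions hung on those libraries: FL stood at -0.71 without FL 6, and ML at 0.51 without control 2.

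Rora (ENSMUSG00000032238, chromosome 9, 68653786 to 69388246, plus strand), the activator of ROR response elements, was at 46.4, 82.3 and 80.4 CPM in controls 1 to 3 and 47.9 CPM in control 4. FL gave 56.6, 47.7 and 44.0 CPM, and ML gave 45.7, 24.6 and 44.7 CPM. The ML libraries all lay below the lowest control, as in 2.86% of tested genes, but ML 8 at 45.7 CPM was close to control 1 at 46.4 CPM, and FL overlapped both groups. ML differed from control by -0.75 on the log2 scale (SE 0.33, 95% interval -1.47 to -0.02), with an unadjusted p of 0.0440 and an adjusted p of 0.305 in edgeR. The ranges overlapped once the drift with exon length and GC content was removed, when the controls stood at 44.2 to 65.8 CPM and ML at 44.3 to 49.5 CPM, a difference of -0.27 (SE 0.22, edgeR adjusted p = 0.560). Rora has 13071 bases of exon, the longest of the 8. FL differed from control by -0.38 (SE 0.33, edgeR adjusted p = 1.00).

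**Figure D3:**
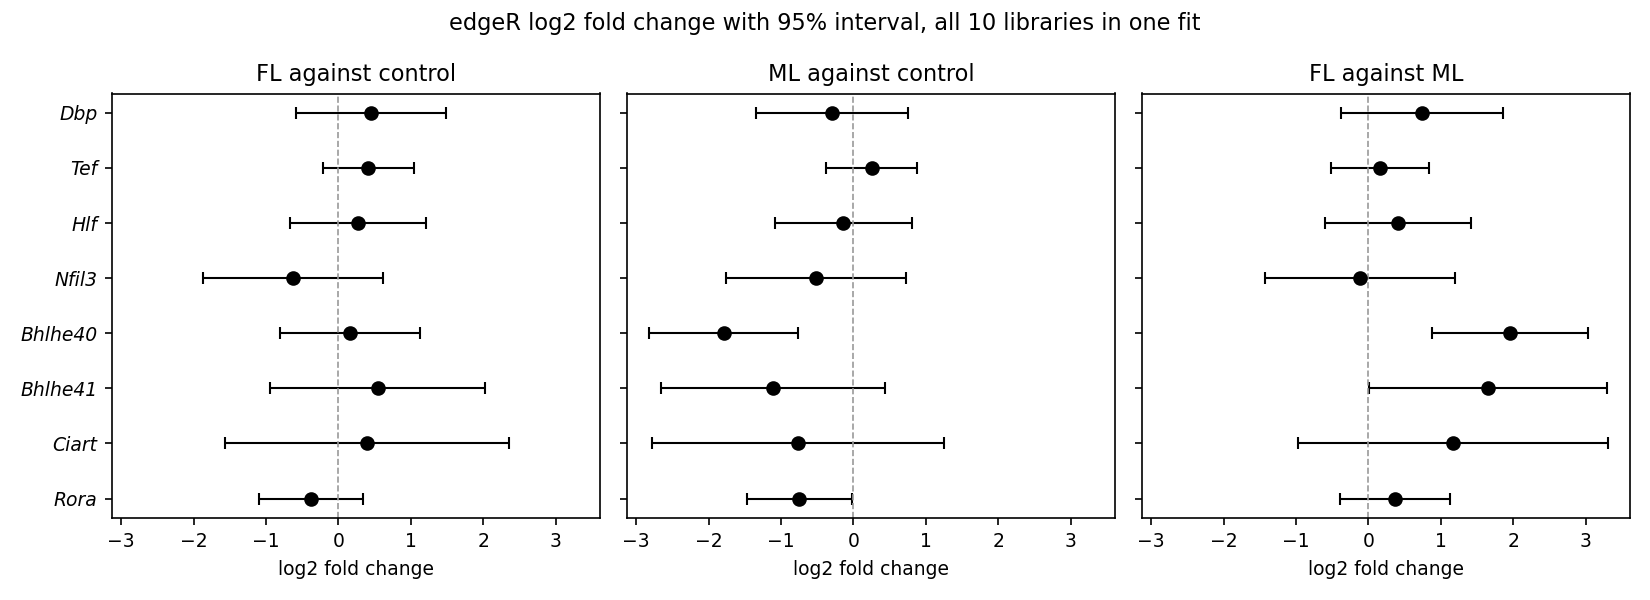
Log2 difference of each factor, with its 95% interval, for FL against control, ML against control and FL against ML. The intervals for Bhlhe40 in both comparisons with ML, for Rora in ML against control and for Bhlhe41 in FL against ML lie off 0, before adjustment over all genes.

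By direction, 6 of the 8 factors were above control in FL (all but Nfil3 and Rora), with a median log2 difference of 0.33, beside 44.7% of all tested genes above 0 and an all-gene median of -0.05. In ML 7 of 8 were below control (all but Tef), with a median of -0.63, beside 47.1% of all genes above 0 and a median of -0.05. These comparisons share the 4 controls. In FL against ML, 7 of 8 were higher in FL (all but Nfil3, whose sign turned in 7 of 22 alternatives, total counts as the scaling among them), with a median of 0.58, beside 52.1% of all genes and a median of 0.04. The other differences of FL from ML were 1.16 for Ciart (SE 0.98), 0.74 for Dbp (SE 0.51), 0.41 for Hlf (SE 0.46), 0.37 for Rora (SE 0.35), 0.16 for Tef (SE 0.31) and -0.11 for Nfil3 (SE 0.60), with edgeR adjusted p-values of 0.391 to 0.922. In ML 9 the median of the 8 factors was -1.12 relative to their means over libraries on the log2 scale, and it was the lowest of 10 libraries for 7 of them. Genes as long as the factors lay at a median of -0.22 in ML 9. The share of all genes with their lowest value in ML 9 was not counted, so the 7 cannot be set apart from that library's general behaviour. The highest such median was 0.91, in control 2. Without control 1 and ML 9, Dbp, Hlf and Tef in ML stood at -0.01, 0.04 and 0.48 against control, Nfil3 at -1.08, Bhlhe41 at -0.79, Ciart at -0.58 and Rora at -0.63, so that with Bhlhe40 6 of 8 were below control. In FL the same fit gave -0.00081 for Bhlhe40 and 0.10 and 0.11 for Hlf and Ciart, with 5 of 8 above control, and in FL against ML 7 of 8 were above 0. With the surrogate variable, 5 of 8 were above control in FL, 5 of 8 below control in ML and 3 of 8 (Dbp, Bhlhe40 and Bhlhe41) higher in FL than in ML.

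The core clock genes that drive these factors were read from a list of 14, of which 13 were tested, all but Npas2, and none passed the adjusted threshold. Arntl, which encodes BMAL1, was low in all libraries, at 0.912, 2.73, 1.09 and 7.13 CPM in controls, 0.407, 1.22 and 3.09 CPM in FL and 1.13, 1.43 and 2.45 CPM in ML. Since Dbp and Arntl peak at opposite times of day, their log2 ratio was set out for each library. It was 5.60, 3.56, 6.05 and 1.86 in controls, 7.39, 5.99 and 3.43 in FL, and 5.77, 3.84 and 3.31 in ML. Control 4 gave the lowest ratio and FL 5 the highest, and the groups overlapped. Their means were 4.27 ± 1.94 (n = 4), 5.60 ± 2.01 (n = 3) and 4.31 ± 1.30 (n = 3). The part that hour of collection plays in any difference was not tested, as the labels do not give it.

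Per2, a repressor of the loop with E-box control, was at 15.7, 10.9, 22.0 and 19.1 CPM in controls, 38.9, 47.0 and 27.3 CPM in FL and 19.9, 12.3 and 18.4 CPM in ML. All 3 FL libraries were above the other 7 libraries, as in 1.07% of tested genes. The FL difference from control was 1.15 on the log2 scale (SE 0.32, edgeR adjusted p = 0.804) and that from ML was 1.16 (SE 0.35, edgeR adjusted p = 0.238). Nr1d1, which encodes the repressor REV-ERBα that competes with RORA, was at 6.78, 42.0, 34.0 and 73.8 CPM in controls, 59.1, 37.8 and 13.0 CPM in FL and 13.6, 2.15 and 3.44 CPM in ML. Its difference from control in ML was -2.60 (SE 0.85, edgeR adjusted p = 0.301), with control 1 inside the ML range. Per3, a paralog of Per2, gave 0.71 in FL (SE 0.44) and -0.08 in ML (SE 0.45) against control. Cry1, a repressor of the loop, was 1.25 above control in ML (SE 0.41, edgeR adjusted p = 0.301). Over the list, 5 of 13 genes were above control in FL and 2 of 13 in ML, with medians of -0.19 and -0.36, and unadjusted p under 0.05 was reached by 1 higher gene in FL and by 2 higher and 3 lower genes in ML, beside 3.53% and 16.1% of all genes in either direction. In FL against ML, 8 of 13 were higher in FL, with a median of 0.78. There 3 higher and 0 lower genes reached an unadjusted p under 0.05 in edgeR, beside 20% of all genes. Of all tested genes, 44.7% were above control in FL, 47.1% were above control in ML and 52.1% were higher in FL than in ML.

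**Figure D4:**
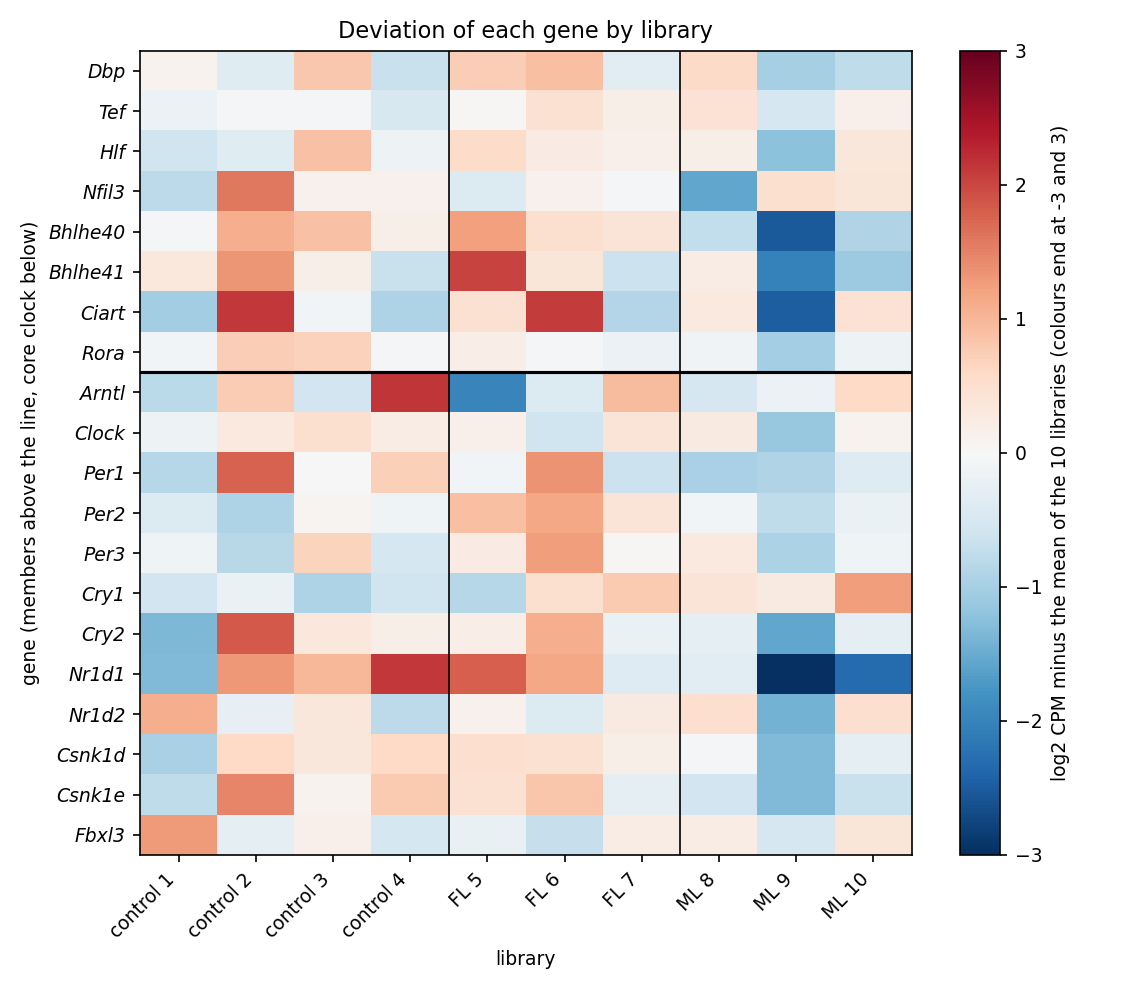
Log2 CPM of the 8 factors and 12 core clock genes in each library as a difference from the gene's mean over 10 libraries, with colour for the difference. Control 2 is high for Nfil3 and Ciart, and ML 9 is low for 7 of the 8 factors, a count with no share over all genes to set beside it.

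Target genes of the factors were read from lists by binding site, and none of their members passed the adjusted threshold. Of 13 liver genes linked to the PAR bZIP factors, 5 were above control in FL and 10 in ML, with medians of -0.44 and 0.58, and 3 of 13 were higher in FL than in ML, with a median of -0.68. The gene of lowest p in FL against ML was Acot3, a peroxisomal acyl-CoA thioesterase, at 8.09, 7.41, 3.80 and 1.52 CPM in controls, 1.15, 1.42 and 1.57 CPM in FL and 7.46, 34.4 and 27.9 CPM in ML. FL lay under ML for Acot3 by a log2 difference of -4.07 (SE 0.70, unadjusted p = 9.57e-05, adjusted p = 0.238 in edgeR), with no overlap between FL and ML, as in 15.1% of tested genes in that direction. Its neighbours in the family, Acot2 and Acot4, gave -2.15 (SE 0.57) and -1.82 (SE 0.44), both with an edgeR adjusted p of 0.238. The summed activator level per kilobase, 36.6 to 56.0 in FL and 21.3 to 50.1 in ML, overlapped between these groups. Any link between that level and the Acot genes was not tested. Cyp2b10, a drug-metabolising P450, stood at -5.68 in FL against control (SE 1.77, edgeR adjusted p = 0.925), with control 2 at 289 CPM. Pdxk, a vitamin B6 kinase and a textbook PAR bZIP target, was 0.81 above control in FL (SE 0.41). Nr1i3, which encodes the xenobiotic receptor CAR, was 1.00 above control in ML (SE 0.47, edgeR adjusted p = 0.313). It was at 27.2, 113 and 56.1 CPM in ML 8 to 10, with controls at 26.0 to 44.4 CPM. The highest value was thus in ML 9, and ML 8 lay within the controls.

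Of 10 genes with E-box control, 6 were above control in FL and 4 in ML, with medians of 0.45 and -0.04, and 7 of the 10 (the Per genes, Cry1, Cry2, Nr1d1 and Nr1d2) are also in the core clock list. In FL against ML, 7 of the 10 E-box genes were higher in FL, with a median of 0.77. Usp2, a deubiquitinase, was 1.34 above control in FL (SE 0.51), and Nampt, the rate-limiting enzyme of NAD salvage, was 1.19 above control in ML (SE 0.43). Nampt was at 92.4, 105 and 254 CPM in ML 8 to 10, and control 1 at 104 CPM lay inside that range. Of 9 tested genes linked to ROR and REV-ERB sites, 3 were above control in FL and 4 in ML, with medians of -0.27 and -0.36, and Arntl, Clock and Cry1 among them are again core clock genes. In FL against ML, 1 of these 9 was higher in FL, with a median of -0.86. Elovl3, a fatty acid elongase, was below control in both, by -2.29 (SE 0.48, edgeR adjusted p = 0.406) in FL and -1.43 (SE 0.46, edgeR adjusted p = 0.301) in ML. Insig2, a brake on sterol synthesis, was at -2.05 in FL (SE 0.49, edgeR adjusted p = 0.575).

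Bhlhe40 also answers to immediate stimuli and to low oxygen, so lists for both were read beside it. All 14 tested immediate early genes were below control in FL and in ML, with medians of -1.75 and -2.33 and with 9 and 11 at an unadjusted p under 0.05, beside 3.53% and 16.1% of all genes, and none passed the adjusted threshold. Egr1 gave -3.62 in FL (SE 0.97, edgeR adjusted p = 0.772) and -7.19 in ML (SE 1.18, edgeR adjusted p = 0.301). In FL Bhlhe40 stood 0.16 above control, and Nr4a1, another immediate early factor, stood at -2.94 (SE 0.60). In ML both were below control, at -1.79 and -4.00. In FL against ML, 11 of the 14 genes were higher in FL and 3 lower, with a median of 0.98, beside 52.1% of all genes higher. There Egr1 stood at 3.57 (SE 1.03, edgeR adjusted p = 0.238) and Bhlhe40 at 1.95. Any part of either stimulus in the level of Bhlhe40 was not tested. Of 9 hypoxia genes, none was above control in FL and 3 were in ML, with medians of -0.28 and -0.14, and 1 lower gene in each comparison and 1 higher gene in ML reached an unadjusted p under 0.05. In FL against ML, 4 of the 9 were higher in FL, with a median of -0.01. Vegfa, the vascular growth factor, was at -1.02 in ML (SE 0.40), and Ankrd37, a hypoxia-induced gene, was at 1.44 (SE 0.57), both with an edgeR adjusted p of 0.301.

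Across the 10 libraries, 24 of the 28 pairs of factors had a positive Pearson correlation of log2 CPM, with a median r of 0.53 that fell to 0.27 over the 8 libraries without control 1 and ML 9. By Pearson's r with a permutation test of 100000 resamples, 2 pairs passed after adjustment over the 28, and 0 did by Spearman's rho. The share of all gene pairs with such r was not computed. High r was not rare, as 140 of 11197 genes had r over 0.9 with Bhlhe40 and 47 with Rora. The permutation shuffled libraries across the 3 groups, so differences between groups and the outlying ML 9 enter these p-values. Bhlhe40 and Rora gave r = 0.86 (permutation p = 0.00138, adjusted p = 0.0386) and rho = 0.82 (permutation p = 0.00581, adjusted p = 0.148). Bhlhe40 and its paralog Bhlhe41 gave r = 0.82 (permutation p = 0.00306, adjusted p = 0.0428) and rho = 0.78 (permutation p = 0.0106, adjusted p = 0.148). Without ML 9 and ML 10, the libraries farthest from the median of Bhlhe40, r was 0.68 for Rora and 0.57 for Bhlhe41. With group means removed, r was 0.96 and 0.76. All these correlations used CPM that kept any drift with exon length and GC content. Removing that drift moved the log2 difference of Rora in ML against control from -0.75 to -0.27. Whether the pairs would pass after its removal was not tested. Nfil3 was the member that ran against the activators, at r = -0.47 with Dbp (adjusted p = 0.281 by permutation; rho = -0.50, adjusted p = 0.294), -0.33 with Tef and -0.22 with Hlf, though none of these passed. Among the activators, Dbp gave r = 0.61 with Tef and 0.65 with Hlf, with adjusted p-values of 0.152 and 0.148 by permutation.

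**Figure D5:**
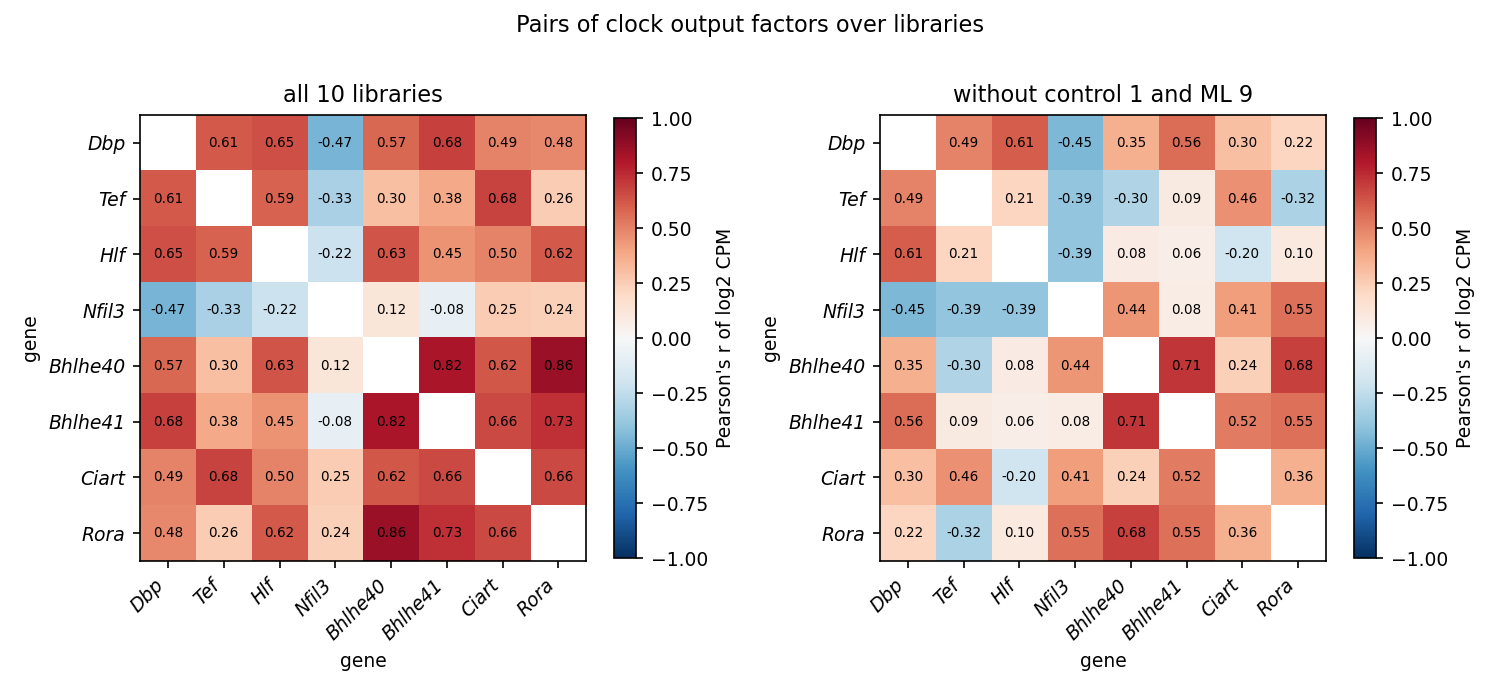
Pearson r of log2 CPM for the 28 pairs of factors over all 10 libraries and over the 8 libraries without control 1 and ML 9, with colour for r. Positive values make up 24 of 28 pairs on the left and 22 of 28 on the right, with medians of 0.53 and 0.27. The share of positive r among all gene pairs was not computed.

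The genes whose log2 CPM ran closest to each factor over the 10 libraries were ranked by Pearson's r among 11197 genes, as a description over libraries that include ML 9. Dusp10, a phosphatase of stress kinases, was closest to Bhlhe40 at r = 0.98, followed by Map3k1 and Apc at 0.97 each, and 140 genes had an r over 0.9 with Bhlhe40. Gpr65, Mapkapk2 and Zbtb10 were closest to Rora, at 0.97, 0.95 and 0.94. Per3, a clock gene, was the third closest to Dbp at 0.85, after H2-T24 at 0.89 and Epha1 at 0.88. The clock output Usp2 was second to Tlnrd1 for Tef, at 0.84 and 0.88. Hlf ran closest to Tut4 (0.95), Nfil3 to Acbd6 (0.86), Bhlhe41 to Soat1 (0.94), a cholesterol acyltransferase, and Ciart to Tnfaip3 (0.92), an inhibitor of NF-κB signalling.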

How the data were processed

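Directional libraries from poly(A) RNA of whole liver were sequenced at both ends, per the labels' protocols. Values are raw counts for each gene as deposited, which the authors made with STAR and featureCounts on GRCm38, per the submitters' processing notes; the sources used here give no version, annotation or strand setting. Ensembl IDs were named through GENCODE M21, which matched 45229 of 46071 rows; the other 842 held at most 0.0659% of a library's counts. Counts of all 10 libraries were fitted in 3 groups with edgeR 4.0.16 in R 4.3.3 (robust quasi-likelihood F test, TMM scaling, genes kept by filterByExpr at 10 counts, two-sided, 7 residual degrees of freedom) and adjusted by Benjamini-Hochberg over 14820 genes, at a threshold of 0.05. SE is the log2 difference divided by the square root of F. Level per kilobase is CPM divided by the union exon length. Alternatives used DESeq2 1.42.0, limma 3.58.1 with voom, sva 3.50.0 with 1 surrogate variable, other scalings and filters, a removed trend on exon length and GC content, and each library left out.

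The 8 factors, the gene lists and the rules were chosen with earlier results of these data known. The text names all 8 factors, up to 4 genes of lowest p per list and comparison, 5 fixed clock genes, and the 3 genes most like each factor among those with a mean CPM of at least 1. The values of 1 of the 13 tested core clock genes, though counted in the lists, are not reported here. The script of the test was checked on simulated counts, with 50 genes changed at each size. At an edgeR adjusted p under 0.05 it recovered 6% of 2-fold changes in FL against control, 8% in ML against control and 4% in FL against ML. For 4-fold changes the shares were 84%, 52% and 42%, and for 8-fold changes 96% in each. Changes of about 2-fold would therefore seldom pass, so the absence of a call does not show that a factor was unchanged.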

Additional observations from a re-analysis of the deposited data

Results flagged for a closer look

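Ciart in control 2, at 48.6 CPM, lay far from the other controls, the nearest of which was at 10.6 CPM. The gap was 0.879 of the range of the 4 controls, above the Dixon limit of 0.829. This rule was applied to CPM and not to log2 values, so the flag holds for the CPM scale only. The 8 factors were each examined in the control group, the only group with 4 libraries. Chance marks about 1 in 20 such groups if their values are normally distributed. Control 2 was the highest control for 6 of the 8 factors, all but Dbp and Hlf, and Nfil3 stood there at 86.1 CPM. Without it, Ciart stood at 0.51 in ML against control in place of -0.77, and at 1.66 in FL against control in place of 0.40, all on the log2 scale.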

How the results depend on the processing

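No paired analysis was possible because the replicate numbers run from 1 to 10 and no number occurs in more than 1 group. Each of the 24 differences of the 8 factors was refitted in 21 ways, and a threshold of 0.10 was tried on the same fit, which made no call among them. Of the 504 refitted values, 465 kept their direction and their side of the threshold, 2 became calls (Bhlhe40 by DESeq2 in both comparisons with ML), 6 kept their direction but had no adjusted p (DESeq2 in FL against ML) and 31 changed sign, in 13 of the 24 differences; 11 had no change of sign. In FL against control, Bhlhe40 was -0.044 with the surrogate variable, -0.00081 without control 1 and ML 9, -0.0047 without control 1 and -0.15 without FL 5; Bhlhe41 was -0.52 without FL 5, Ciart -0.71 without FL 6 and Nfil3 0.018 without control 2. In ML against control, Hlf was 0.40 with the surrogate variable, 0.072 with the length and GC trend removed, 0.043 without control 1 and ML 9, 0.28 without control 3 and 0.22 without ML 9; Ciart was 0.64 with the surrogate variable and 0.51 without control 2, Dbp 0.063 without control 3 and Nfil3 0.13 without control 2. In FL against ML, the surrogate variable gave -0.079 for Tef, -0.29 for Hlf, -0.38 for Ciart and -0.17 for Rora, and trend removal -0.31 for Tef, 0.17 for Nfil3 and -0.13 for Rora; without control 1 and ML 9 Tef was -0.065 and Nfil3 0.19, and without ML 9 they were -0.084 and 0.18. Nfil3 there was 0.16 with limma-voom, 0.39 with total counts, 0.025 without FL 5 and 0.12 without ML 10. Total counts as the only scaling moved the median of all genes to -0.245 in ML against control and 0.374 in FL against ML. Genes called numbered 2, 0 and 1 in FL against control, ML against control and FL against ML with edgeR, and 52, 46 and 248 with DESeq2, which called 1 of the 8 factors in each comparison with ML. FL against control gave 1 with limma-voom and 1 without a filter, and ML against control gave 3 without a filter. FL against ML gave 2 without a filter, 2 at an adjusted p under 0.10, and 0 with total counts, with only the compared groups or with the trend removed. With single libraries left out, the differences that changed sign ranged, in FL against control, from -0.89 to 0.018 for Nfil3, -0.15 to 0.37 for Bhlhe40, -0.52 to 1.01 for Bhlhe41 and -0.71 to 1.66 for Ciart; in ML against control, from -0.96 to 0.063 for Dbp, -0.42 to 0.28 for Hlf, -0.81 to 0.13 for Nfil3 and -1.15 to 0.51 for Ciart; and in FL against ML, from -0.084 to 0.38 for Tef and -0.53 to 0.18 for Nfil3. Among the rest, single libraries moved the value by over 1.5 times in FL against ML for Bhlhe41 (0.59 to 2.46), Ciart (0.054 to 1.62), Dbp (0.45 to 1.41), Hlf (0.044 to 0.69) and Rora (0.11 to 0.52), in FL against control for Dbp (0.23 to 0.81), Hlf (0.10 to 0.69) and Rora (-0.50 to -0.24), and in ML against control for Bhlhe41 (-1.91 to -0.63), Rora (-0.89 to -0.49) and Tef (0.039 to 0.49). Counts of genes called then ranged over 0 to 3, 0 to 1 and 0 to 2 genes, and 0 of the 8 factors. Except where a left-out library shows it, the cause was not tested. Depth limits Bhlhe41 most, at 12 counts in ML 9.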
